A study of Mus musculus with 2 samples.

Results

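Replication-dependent histone genes supply the bulk of the histones that package newly made DNA. In the GENCODE vM21 annotation of GRCm38, 67 of 21951 protein-coding genes carried a symbol starting with Hist1h, Hist2h, Hist3h or Hist4h, and these 67 genes are described here. They comprised 6 H1, 18 H2a, 18 H2b, 12 H3 and 13 H4 genes. By cluster, 54 belonged to Hist1 on chromosome 13, 10 to Hist2 on chromosome 3, 2 to Hist3 on chromosome 11 and 1 to Hist4 on chromosome 6. A gene was scored as carrying a promoter peak when the midpoint of a CUT&RUN peak lay from -1000 to +500 bp of any of its transcription start sites (TSSs).

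CUT&RUN, in which an antibody tethers a nuclease that cuts the DNA around its target, was performed in SYAT cells, a line derived from CGR8 mouse embryonic stem cells (mESCs). In SYAT cells both Srcap alleles carry YPet-AID at the 3' end of the coding sequence, and the OsTir1 receptor is stably expressed, so that the tagged protein can be degraded with auxin. A homozygous clone of the tagged cells was given OsTir1 by lentivirus, selected with puromycin and sorted for cells that lost YPet on auxin, so SYAT is a sorted population that goes back to 1 clone. It was kept in auxinole to prevent basal degradation, and the labels do not give a treatment for the individual libraries. There was 1 library made with an antibody against GFP (ab290, which binds the YPet tag) and 1 made with an antibody against SRCAP (ESL-103), each from 100000 cells, so no p-value is given and intervals are 95% Wilson intervals for counting error. Both libraries share the cell line, the tag and the assay, and neither genes nor peaks are independent replicates. A peak list holds no expression values, so the labelled cell type could not be checked against marker genes. The GFP list had 28718 peaks and the SRCAP list 28167, the median score was 47 in both, and depth is unknown because no read counts were given.

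SRCAP is the catalytic subunit of a remodelling complex that exchanges H2A for the variant H2A.Z in nucleosomes. Replication-dependent histone genes are transcribed mainly in S phase in a nuclear domain called the histone locus body, where the coactivator NPAT acts on them. Most lack introns, and their mRNAs end in a conserved stem-loop instead of a poly(A) tail. Many H2a and H2b genes stand head to head and share a short intergenic promoter.

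The genes shared this 3' feature almost without exception. An exact hairpin with arms of 6 bases starting with GG and a loop of 4 bases lay within 150 bp after a stop codon in 65 of the 67 genes (97%, 89.8% to 99.2%). The same letters were found after 194 of 21762 protein-coding genes with an annotated stop codon (0.891%). Hist2h2be and Hist1h2an were the exceptions.

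The promoter sequences below were chosen by the peaks of their genes or, for genes without a peak, by genome order where the motifs were informative. Nothing about peaks is therefore read from the motifs of these few. Each sequence is read 5' to 3' from the GRCm38 assembly and ends just before the outermost GENCODE or RefSeq start. Letters are in lower case, with matched motifs in capitals. Both strands were searched for exact letters, with no allowance for mismatches. The TATA box was searched as TATAAA, the box bound by NF-Y as CCAAT, the octamer bound by Oct1 as ATTTGCAT, the H1 box as AAACACA, the core of H4 site II as GGTCCG and the cAMP response element as TGACGTCA. The pair Hist1h2ak and Hist1h2bn, the gene Hist1h3f with its neighbour Hist1h2bh, and Hist4h4 had promoter peaks in both lists. Among the genes of their class with peaks in both lists, Hist1h2ak, Hist1h2bn, Hist1h3f and Hist4h4 held the highest single score over either list.
Hist1h2ak and Hist1h2bn (chr13:21753913-21754075, + strand): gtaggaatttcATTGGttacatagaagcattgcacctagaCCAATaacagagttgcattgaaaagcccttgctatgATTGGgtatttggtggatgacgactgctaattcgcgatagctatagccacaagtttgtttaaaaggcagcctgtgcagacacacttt
Hist1h2bh (chr13:23543445-23543694, - strand): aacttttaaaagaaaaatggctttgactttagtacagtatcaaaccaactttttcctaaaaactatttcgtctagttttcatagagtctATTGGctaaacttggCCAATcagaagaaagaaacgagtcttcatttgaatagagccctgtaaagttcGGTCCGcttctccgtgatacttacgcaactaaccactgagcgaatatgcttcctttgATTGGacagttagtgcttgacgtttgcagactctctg
Hist1h3f (chr13:23543802-23544051, + strand): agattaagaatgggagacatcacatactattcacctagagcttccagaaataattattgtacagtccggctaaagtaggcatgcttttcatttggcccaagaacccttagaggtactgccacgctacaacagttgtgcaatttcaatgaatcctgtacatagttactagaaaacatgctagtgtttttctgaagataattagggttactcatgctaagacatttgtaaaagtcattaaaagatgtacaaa
Hist4h4 (chr6:136804432-136804681, - strand): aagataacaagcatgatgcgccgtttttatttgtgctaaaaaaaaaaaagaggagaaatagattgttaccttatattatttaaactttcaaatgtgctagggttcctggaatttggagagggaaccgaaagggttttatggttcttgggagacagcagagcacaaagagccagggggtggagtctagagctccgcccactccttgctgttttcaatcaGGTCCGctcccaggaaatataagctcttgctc
The sequence between Hist1h2ak and Hist1h2bn held 3 CCAAT boxes, that before Hist1h2bh held 3 CCAAT boxes and 1 GGTCCG, and that before Hist4h4 held 1 GGTCCG. The 250 bases before Hist1h3f held none of the 6 motifs.

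For comparison, the next promoters belong to genes that had no promoter peak in either list. Hist1h1b, Hist1h2an and Hist1h4m were the earliest H1, H2a and H4 genes in genome order without a peak, and Hist1h2bp is the head-to-head partner of Hist1h2an.
Hist1h1b (chr13:21780626-21780875, - strand): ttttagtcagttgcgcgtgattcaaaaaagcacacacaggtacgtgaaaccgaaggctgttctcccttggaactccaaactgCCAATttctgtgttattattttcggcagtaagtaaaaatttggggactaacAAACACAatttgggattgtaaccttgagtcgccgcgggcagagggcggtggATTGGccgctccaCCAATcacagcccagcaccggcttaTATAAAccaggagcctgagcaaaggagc
Hist1h2an and Hist1h2bp (chr13:21787249-21787460, + strand): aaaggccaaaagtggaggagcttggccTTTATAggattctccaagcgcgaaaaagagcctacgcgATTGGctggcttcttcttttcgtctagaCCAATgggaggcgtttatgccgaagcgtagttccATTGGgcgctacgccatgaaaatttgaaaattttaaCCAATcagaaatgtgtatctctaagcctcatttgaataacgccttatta
Hist1h4m (chr13:21811496-21811745, + strand): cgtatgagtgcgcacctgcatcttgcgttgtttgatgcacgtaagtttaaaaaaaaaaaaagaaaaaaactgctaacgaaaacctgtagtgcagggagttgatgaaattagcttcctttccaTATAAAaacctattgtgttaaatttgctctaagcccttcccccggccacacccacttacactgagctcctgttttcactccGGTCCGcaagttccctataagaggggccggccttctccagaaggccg
Hist1h1b held 3 CCAAT boxes, 1 TATAAA and 1 AAACACA. The Hist1h2an and Hist1h2bp interval held 4 CCAAT boxes and 1 TATAAA, and Hist1h4m held 1 TATAAA and 1 GGTCCG. A match is a match of letters, not a measured binding site.

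Across the family the motifs differed by histone class. Windows from 250 bp before to 50 bp after a TSS were searched at 71 TSSs of protein-coding transcripts of the 67 genes and at 54472 such TSSs of all protein-coding genes. CCAAT was present in 84.5% of histone promoters against 35.9% of all promoters, in 18 of 18 H2a, 22 of 22 H2b, 11 of 12 H3 and 5 of 6 H1 promoters, but in 4 of 13 H4 promoters. TATAAA was present in 53.5% against 11.3%. The octamer was found in 7 of 18 H2a and 8 of 22 H2b promoters and in none of the H1, H3 and H4 promoters, which made 21.1% of the family against 1.53% of all promoters. GGTCCG was found in 12 of 13 H4 promoters and in 21.1% of the family against 10.5% of all promoters, and AAACACA in 4 of 6 H1 promoters and in 12.7% against 6.21%. TGACGTCA was found in 5.63% against 2.06%.

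Promoters of genes with a peak in either list differed from the others by the largest margin, among the 6 motifs, in the octamer. It was present in 12 of 40 promoters of genes with a peak (30%, 18.1% to 45.4%) and in 3 of 31 promoters of genes without one (9.68%, 3.35% to 24.9%). The intervals overlapped, and the paired H2a and H2b genes counted here share their octamers. Only H2a and H2b promoters held it: 6 of 12 H2a promoters with a peak and 1 of 6 without, and 6 of 14 and 2 of 8 H2b promoters. The promoters without a peak include those of 8 genes in which under 50% of the promoter window is unique sequence. For these 8 genes a lack of binding cannot be told apart from a lack of placed reads. None of their promoters held the octamer, and the part of unique sequence in this contrast was not tested. CCAAT was present in 33 of 40 and 27 of 31, and TATAAA in 23 of 40 and 15 of 31. The median GC content of histone promoters was 45.7% against 56% over all promoters, and the median ratio of observed to expected CpG was 0.758 against 0.529. Among histone promoters that ratio was 0.66 for genes with a peak and 0.839 for genes without one. These 2 groups also differ in class, since all 6 H1 genes were without a peak. They differ in unique sequence too, since the 8 genes under 50% all fall in the group without one. Promoters of Hist1h2bq, Hist1h2ao, Hist1h2ap and Hist1h2br had ratios from 0.876 to 0.944. Those of Hist1h4m, Hist1h4n, Hist2h3c1 and Hist2h3c2 had ratios from 0.734 to 0.839. The part of these genes in the CpG difference was not tested.

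Peaks lay at the promoters of many, but not most, histone genes in each list. With the GFP antibody 29 of 67 genes had a promoter peak (43.3%, 32.1% to 55.2%), against 35.0% of all protein-coding genes. With the SRCAP antibody 27 of 67 did (40.3%, 29.4% to 52.3%), against 35.6%. A peak in both lists was found at 17 genes (25.4%, 16.5% to 36.9%), against 27.0%, and a peak in at least 1 list at 39 genes (58.2%, 46.3% to 69.3%), against 43.6%. The intervals of the GFP, SRCAP and shared counts include the share of all genes, so the family was not set apart from other genes in any of these 3 counts. The GFP interval lay above the share of all genes with a window of 2500 bp on either side (59.7%, 47.7% to 70.6%, against 41.6%) and, by a small margin, in genes with at least 50% unique 75-mers, sequences of 75 bases found at a single place in the genome (49.2%, 36.8% to 61.6%, against 36.6%). The share with a peak in at least 1 list lay above that of all genes, with an interval that excluded it. When peaks under their list's median score were left out, the share was near that of all genes (31.3%, 21.5% to 43.2%, against 29.7%). In the 34 genes with at least 80% unique 75-mers it stayed above that of all genes (61.8% against 46.3%). The wider interval from fewer genes (45% to 76.1%) then included that value. Counted as 39 promoter units, in which genes with overlapping windows make 1 unit, 26 had a peak in at least 1 list (66.7%, 51% to 79.4%). A unit counts if any of its windows holds a peak, and no such share was computed for all genes. The share of units therefore cannot be set against 43.6%.

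**Figure D1:**
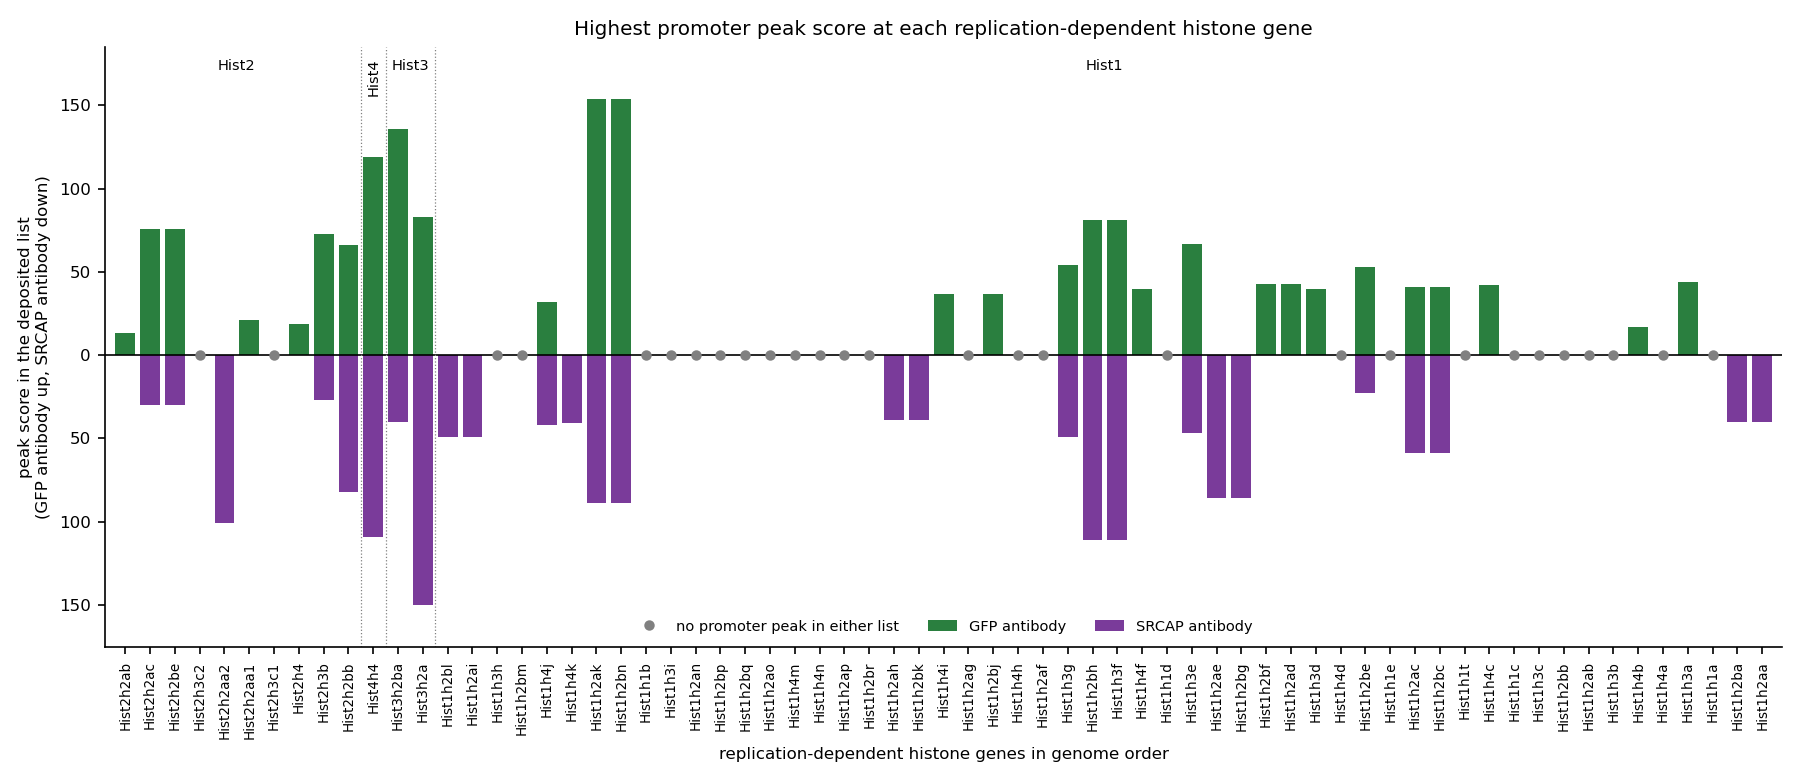
Highest promoter peak score (the authors' score, no unit) at each of the 67 genes in genome order, with the GFP antibody drawn upward and the SRCAP antibody downward from 0, and grey dots for the 28 genes without a promoter peak. Hist1h2ak and Hist1h2bn share the highest GFP score (154), Hist3h2a has the highest SRCAP score (150), and a run of 10 neighbouring genes from Hist1h1b to Hist1h2br has none. Of these 10 genes, 6 have at most 5.61% unique 75-mers in the promoter window.

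The lists shared a part of the histone genes. Of the 29 genes with a GFP peak, 17 also had a SRCAP peak (58.6%, 40.7% to 74.5%), whereas over all protein-coding genes 77.2% of those with a GFP peak did. Of the 27 with a SRCAP peak the same 17 made 63% (44.2% to 78.5%), against 75.8%. For the GFP list the interval lay below the value for all genes, and for the SRCAP list it included it. The GFP interval also included the value for all genes with peaks at or above the median score (64.3%, 38.8% to 83.7%, against 72.1%), with a window of 500 bp on either side (61.5%, 42.5% to 77.6%, against 77.1%) and in genes with at least 80% unique 75-mers (61.1%, 38.6% to 79.7%, against 77.3%). The 12 genes with a GFP peak alone had scores from 13 to 44, all under the list median of 47. The 10 genes with a SRCAP peak alone had scores from 39 to 101. At 10 of those 12 genes the nearest SRCAP midpoint was over 2500 bp from the TSS, and at 9 of the 10 the nearest GFP midpoint was over 2500 bp away.

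The peaks themselves were modest in score and narrow. The 25 GFP peaks at histone promoters had a median score of 44 (interquartile range 37 to 73), against 53 for all 7683 GFP peaks at coding promoters. The 21 SRCAP peaks had a median of 47 (39 to 86), against 54. Their median widths were 253 and 230 bp, against 334 and 296 bp. By overlap of at least 1 bp, 13 of 25 GFP peaks (52%, 33.5% to 70%) and 13 of 21 SRCAP peaks (61.9%, 40.9% to 79.2%) met a peak of the other list, against 68.8% and 68.5% of all coding promoter peaks.

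The H2a and H2b genes, 36 of the 67, encode the 2 partners of the H2A-H2B dimer. Among H2a genes 7 of 18 had a GFP peak (38.9%, 20.3% to 61.4%) and 9 had a SRCAP peak (50%, 29% to 71%). Among H2b genes 9 of 18 had a GFP peak (50%, 29% to 71%) and 11 a SRCAP peak (61.1%, 38.6% to 79.7%). Pooled, 16 of the 36 had a GFP peak (44.4%, 29.5% to 60.4%, against 35.0% of all genes) and 20 had a SRCAP peak (55.6%, 39.6% to 70.5%, against 35.6%). With peaks at or above the median score 9 had a GFP peak and 12 a SRCAP peak (33.3%), against 22.2% and 23.5% of all genes. These counts rest on fewer sites than genes, since 24 of the 36 stand in 12 head-to-head pairs whose TSSs were 176 to 306 bp apart.

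Of those 12 pairs, 5 had a GFP promoter peak, 7 had a SRCAP promoter peak, and 3 had neither. The 3 without were Hist1h2an with Hist1h2bp, Hist1h2bq with Hist1h2ao, and Hist1h2ap with Hist1h2br. A SRCAP midpoint fell between the TSSs of 5 pairs and a GFP midpoint between those of 2, and Hist1h2ak with Hist1h2bn was the pair where both did.

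The strongest GFP peak of the family lay in that interval. At Hist1h2ak and Hist1h2bn the GFP peak spanned chr13:21753858-21754100 with a score of 154, above 95.2% of the GFP list. The SRCAP peak there spanned chr13:21753859-21754190 with a score of 89, above 81.6% of its list. The peaks began within 1 bp of each other and covered the 3 CCAAT boxes shown above.

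At other pairs the SRCAP antibody alone gave a peak. Hist1h2ae and Hist1h2bg shared a SRCAP peak of 313 bp with a score of 86, and the nearest GFP midpoint was 2903.5 bp downstream of the Hist1h2bg TSS. Hist1h2bl and Hist1h2ai shared a SRCAP peak of 165 bp with a score of 49. Hist1h2ah and Hist1h2bk had 2 SRCAP peaks, with scores of 39 and 22. Hist1h2ba and Hist1h2aa, which encode the testis variants TH2B and TH2A, shared a SRCAP peak with a score of 40.

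Other pairs had a GFP peak, with or without a SRCAP peak. Hist1h2bf and Hist1h2ad shared a GFP peak of 242 bp with a score of 43 and had no SRCAP peak. Hist1h2ac and Hist1h2bc shared a GFP peak with a score of 41 and a SRCAP peak with a score of 59, and Hist2h2ac and Hist2h2be shared peaks with scores of 76 and 30. For Hist1h2bj, the paired gene Hist1h2ag had no peak in its window, since the GFP midpoint (score 37) lay 902.5 bp upstream of Hist1h2bj but 632.5 bp downstream of the Hist1h2ag TSS.

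Outside the pairs, 8 of 12 H2a and H2b genes had a peak in either list. Hist3h2ba had a GFP peak with a score of 136 and a SRCAP peak with a score of 40. Hist3h2a had the reverse order, 83 for GFP and 150 for SRCAP, from nearly identical spans of 948 and 953 bp. That peak also served the promoter window of Trim17, so it was not particular to the histone gene. Hist2h2aa2 had a SRCAP peak with a score of 101 and no GFP peak, while Hist2h2aa1, whose gene sequence is nearly the same (0% and 3.91% unique 75-mers), had a GFP peak with a score of 21 and no SRCAP peak. Promoter windows of those 2 genes held 56.6% and 60.7% unique 75-mers.

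Hist1h2be, an H2b gene, has starts annotated at distant places. Its GENCODE TSSs lie 35.1 kb from the RefSeq start nearest its coding sequence, inside the gene Hist1h1e, and the GFP peak (score 53) and both SRCAP peaks (scores 23 and 22) counted for it lie there. At the start near its coding sequence there was a GFP peak at -494 bp with a score of 62, and no SRCAP peak. RefSeq lists starts at the distant place as well, so the gene had a peak in both lists under both annotations.

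H3 and H4 genes encode the core tetramer. In both classes more genes had a GFP peak than a SRCAP peak. With peaks at or above the median score, however, the counts were 4 and 3 of 12 H3 genes and 1 and 1 of 13 H4 genes. At that threshold 22.2% of all genes had a GFP peak and 23.5% a SRCAP peak. Among H3 genes 6 of 12 had a GFP peak (50%, 25.4% to 74.6%) and 4 a SRCAP peak (33.3%, 13.8% to 60.9%), and those 4 were among the 6. Among H4 genes 7 of 13 had a GFP peak (53.8%, 29.1% to 76.8%) and 3 a SRCAP peak (23.1%, 8.18% to 50.3%). Pooled, 13 of 25 H3 and H4 genes had a GFP peak (52%, 33.5% to 70%, against 35.0% of all genes). A SRCAP peak was found at 7 (28%, 14.3% to 47.6%, against 35.6%), and both intervals included the share of all genes. The pooled SRCAP share of H2a and H2b genes was 55.6% (39.6% to 70.5%), so the intervals of the 2 pooled SRCAP shares overlapped, as did those of every pair of core classes within a list. The difference was not tested.

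**Figure D2:**
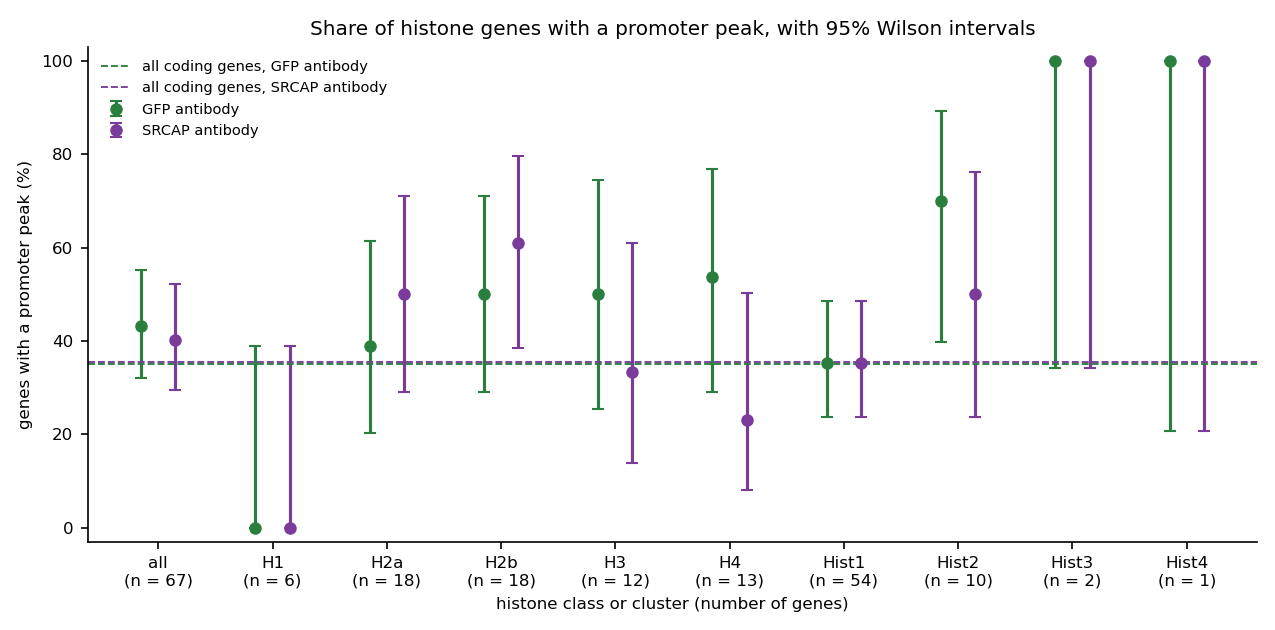
Percentage of genes with a promoter peak, for all 67 genes, for each histone class and for each cluster (number of genes in brackets), with points for the 2 antibodies, bars for 95% Wilson intervals and dashed lines for all protein-coding genes (35.0% and 35.6%). H1 stands at 0% in both lists, H4 at 53.8% with GFP and 23.1% with SRCAP, and the intervals of the core classes overlap throughout.

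Among H3 genes the highest scores were at Hist1h3f, which stands head to head with Hist1h2bh, 660 bp apart. The 2 genes shared a GFP peak with a score of 81 and a SRCAP peak with a score of 111, and both peaks lay at Hist1h2bh, with midpoints 12 and 100.5 bp upstream of its TSS. A further GFP peak with a score of 65 lay 334 bp downstream of the Hist1h3f TSS, where there was no SRCAP peak. Hist2h3b had scores of 73 and 27, Hist1h3e 67 and 47, and Hist1h3g 54 and 49, with the GFP value given before the SRCAP value. Hist1h3a and Hist1h3d had a GFP peak alone, with scores of 44 and 40.

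Among H4 genes Hist4h4, the lone gene of its cluster, stood above the rest. Its GFP peak was 1194 bp wide with a score of 119, and its SRCAP peak was 844 bp wide with a score of 109. The other H4 genes with a peak had scores of at most 42. Hist1h4j had peaks in both lists with scores of 32 and 42, and Hist1h4k had a SRCAP peak alone with a score of 41. Hist1h4c, Hist1h4f, Hist1h4i, Hist2h4 and Hist1h4b had a GFP peak alone, with scores of 42, 40, 37, 19 and 17.

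None of the 6 H1 genes, which encode linker histones, had a promoter peak in either list (0%, upper limit 39%). That interval included the 35.0% (GFP) and 35.6% (SRCAP) of all genes, so the count did not set H1 genes apart. The promoter windows of H1 genes were the most unique of all classes, with a median of 100% unique 75-mers. Peaks lay nearby: the nearest GFP midpoint was 845.5 bp downstream of the TSS at Hist1h1c, 1062.5 bp upstream at Hist1h1a, 1368.5 bp downstream at Hist1h1e, 1820.5 bp upstream at Hist1h1d and 2227.5 bp downstream at Hist1h1t, the testis variant. At Hist1h1b it was 10103 bp upstream. With RefSeq starts in place of GENCODE TSSs, 1 call of the whole family changed: Hist1h1d gained a SRCAP peak with a score of 23, 373 bp downstream of its RefSeq start, which made 16.7% of H1 genes.

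The calls near the edges of the window bear on single genes. Just inside it were the GFP midpoints 949.5 bp upstream of Hist1h4i and 902.5 bp upstream of Hist1h2bj, which belong to the same peak, and those 459.5 bp downstream of Hist1h4j and 412.5 bp downstream of Hist1h4c. In the SRCAP list the midpoints 482.5 bp downstream of Hist1h2bk and 441.5 bp downstream of Hist1h4j were just inside. Hist1h4j also had a GFP midpoint 422 bp upstream, and Hist1h2bk a SRCAP midpoint 137.5 bp upstream. The GFP call of Hist1h4j and the SRCAP call of Hist1h2bk therefore did not rest on the edge. Just outside in the GFP list was the midpoint 1062.5 bp upstream of Hist1h1a, followed by those 632.5 bp downstream of Hist1h2ag, 806.5 bp downstream of Hist2h3c2 and 845.5 bp downstream of Hist1h1c. In the SRCAP list the midpoints 743.5 bp downstream of Hist1h1e and 1296.5 bp upstream of Hist2h3c2 were the nearest outside. Those 1371 bp upstream of Hist1h3h and 919.5 bp downstream of Hist2h4 came next.

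Midpoints lay mostly upstream of the TSS at H3 genes and mostly downstream at H4 genes. Over all histone genes the median midpoint was 81.5 bp upstream of the nearest histone TSS for the GFP list (interquartile range -217.5 to 113.5 bp) and 100.5 bp upstream for the SRCAP list (-137.5 to 56 bp). At H3 genes 5 of 6 GFP midpoints and 3 of 3 SRCAP midpoints were upstream, with medians of -203.5 and -139.5 bp. At H4 genes 6 of 7 GFP midpoints and 3 of 3 SRCAP midpoints were downstream of the TSS, with medians of 134.5 and 253.5 bp. H2a and H2b genes had medians from -156.5 to -99.5 bp in either list. The median share of unique 75-mers over the gene itself was 75.4% for H4 and 47.6% for H3 genes, and its part in the difference was not tested.

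**Figure D3:**
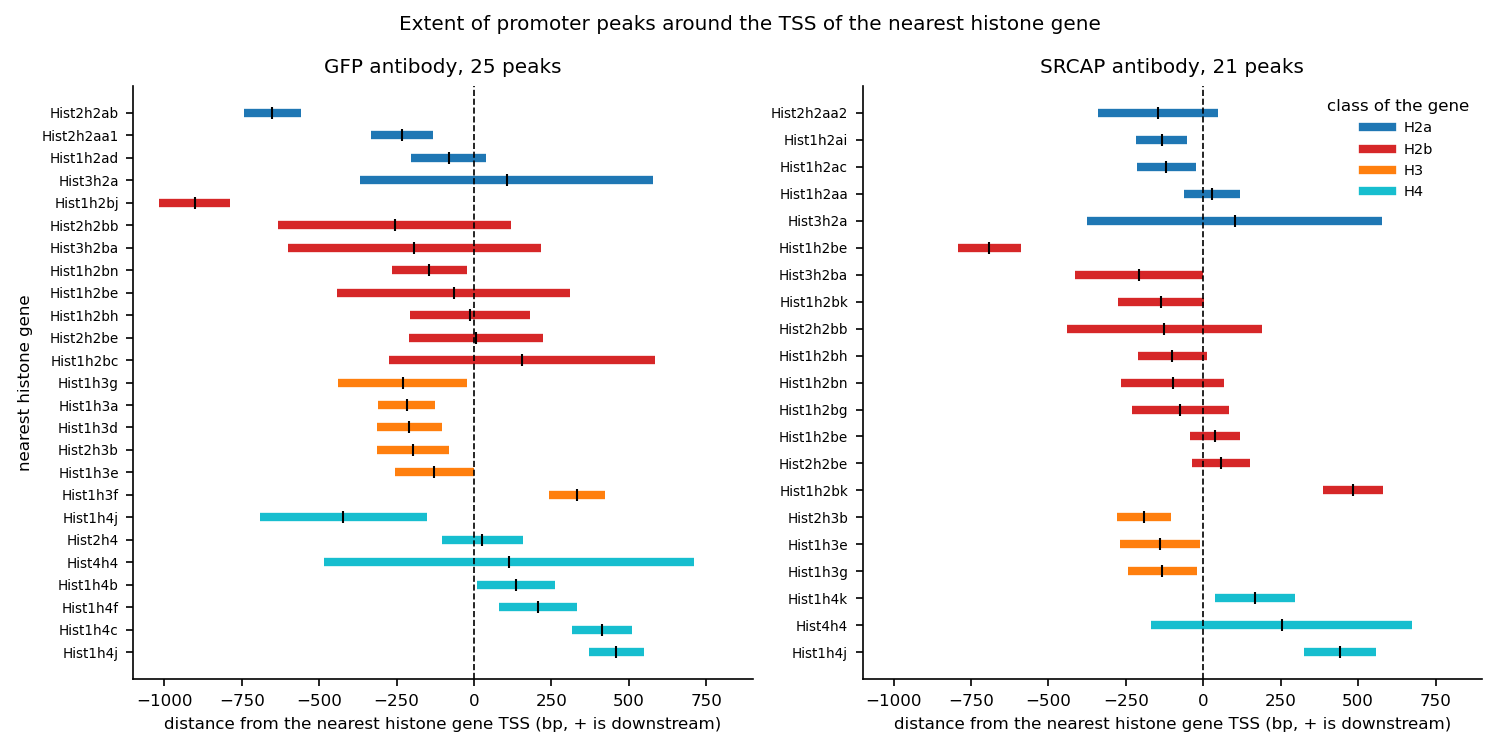
Extent of each of the 25 GFP and 21 SRCAP peaks relative to the TSS of the nearest histone gene (bp, positive downstream), coloured by class, with a black tick at the midpoint and a dashed line at the TSS. Most H3 peaks lie left of the TSS, and most H4 peaks lie right of it.

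Every cluster had genes with a peak in each list. In Hist1, 19 of 54 genes had a GFP peak and 19 had a SRCAP peak (35.2% each, 23.8% to 48.5%), and 10 had both. Over all genes the shares were nearly the same, 35.0% with GFP and 35.6% with SRCAP. In Hist2, 7 of 10 had a GFP peak (70%, 39.7% to 89.2%) and 5 a SRCAP peak (50%, 23.7% to 76.3%). Both Hist3 genes and the Hist4 gene had peaks in both lists. The intervals of Hist1 and Hist2 overlapped in both lists, and that of Hist2 with the GFP antibody lay above the 35.0% of all genes. The Hist2 interval included the share of all genes with peaks at or above the median score (40%, 16.8% to 68.7%, against 22.2%) and with a window of 500 bp on either side (60%, 31.3% to 83.2%, against 32.3%).

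Hist1 itself was uneven. Genes separated by gaps over 150000 bp fell into 4 blocks. In the block of 18 genes at chr13:21715763-21837530 a GFP peak was found at 3 genes and a SRCAP peak at 6, and 12 had neither. In the block of 29 genes at chr13:23531050-23764406 the counts were 14 and 9, and 13 had neither. The block of 5 genes at chr13:22035164-22043676 had 2 genes with a GFP peak and 2 others with a SRCAP peak. The remaining block of 2 genes, Hist1h2ba and Hist1h2aa, had the SRCAP peak described above. The longest run without a peak in either list was the 10 consecutive genes from Hist1h1b to Hist1h2br, and a further run of 5 went from Hist1h1c to Hist1h3b. Of the run of 10, 6 genes had at most 5.61% unique 75-mers, so reads may not have been placed there. The median share of unique 75-mers was 65.2% in the block of 18 genes and 86.5% in the block of 29. Its part in the difference between blocks was not tested.

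Many of these genes are near-identical copies, so the share of unique sequence was computed for each. The share of 75-mers in the promoter window that occur at a single place in the genome, on either strand, had a median of 80.1% over the 67 genes against 100% over all protein-coding genes. It was under 50% at 8 histone genes (11.9%), against 4.75% of all genes. These were Hist1h2bq, Hist1h2ao, Hist1h2ap and Hist1h2br at 0%, Hist1h4n at 5.26%, Hist1h4m at 5.61%, Hist2h3c1 at 10.4% and Hist2h3c2 at 10.7%, and none of the 8 had a promoter peak. Among all protein-coding genes under 50%, 3.45% had a GFP peak and 3.93% a SRCAP peak. In the ChIP-seq and CUT&Tag methods of the study reads aligning to more than 1 place were left out, and whether this was done for CUT&RUN was not stated. For these 8 genes the lack of binding and the lack of reads placed there cannot be told apart.

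Other genes without a peak lay in largely unique sequence. Of the 28 genes with none, 13 had at least 80% unique 75-mers, among them the 6 H1 genes and Hist1h4a, Hist1h4d, Hist1h4h, Hist1h2ab, Hist1h2af, Hist1h2bb and Hist1h3i. Among the 34 histone genes at or above 80%, 18 had a GFP peak (52.9%) and 14 a SRCAP peak (41.2%), against 37.2% and 37.9% of all protein-coding genes at or above 80%. The 10 genes with a SRCAP peak alone had a median of 65.5%, and the 12 with a GFP peak alone had a median of 88.3%. Its part in that difference was not tested.

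**Figure D4:**
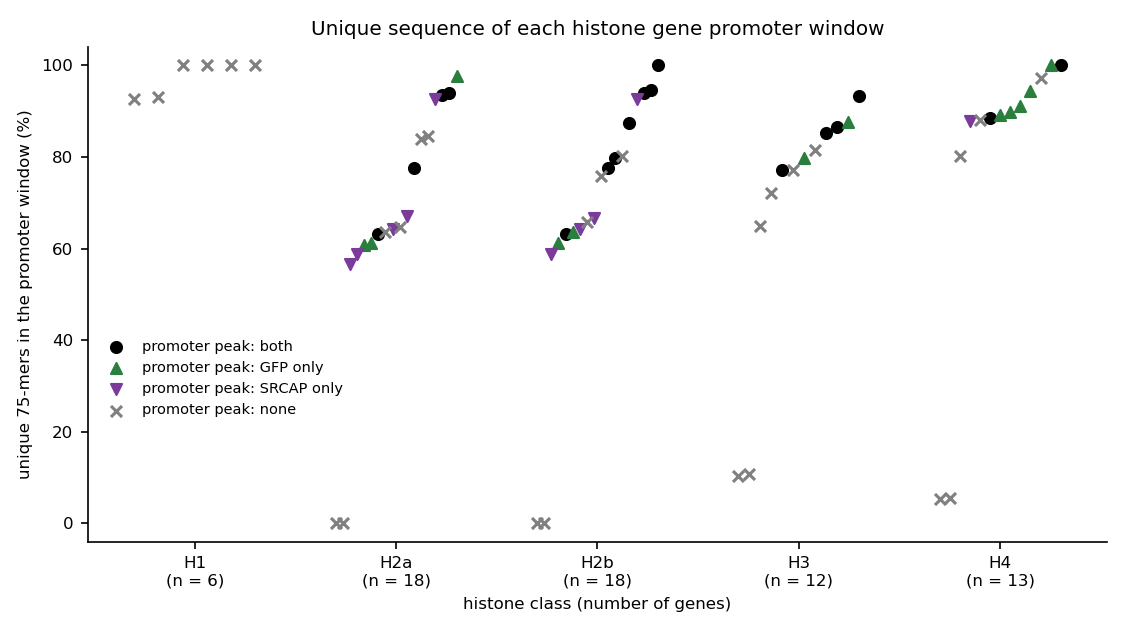
Percentage of unique 75-mers in the promoter window of each gene, by class (number of genes in brackets), sorted within a class and marked by the list or lists with a promoter peak. The 8 genes under 50% are all marked as without a peak, while the 6 H1 genes without a peak lie between 92.6% and 100%.

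Few of the other genes of the Hist1 interval had a peak. Between the outermost Hist1 genes lay 49 other protein-coding genes, most of them Vmn1r vomeronasal receptors. Of the 49, 6 had a GFP peak and 5 a SRCAP peak, against 35.0% and 35.6% of all protein-coding genes. Those with a peak were Zfp184, Prss16, Zfp322a, Btn1a1 and Btn2a2 in both lists and Pom121l2 in the GFP list. Peak density in the interval was 26.6 per Mb for GFP and 18 per Mb for SRCAP, against 11.2 and 10.8 over chromosome 13. The Hist2 interval of 50.3 kb, which holds no other protein-coding gene, had 8 GFP and 5 SRCAP peaks, or 153.1 and 95.7 per Mb, against 9.17 and 8.64 over chromosome 3. These densities include the peaks at histone promoters, so they are not independent of the gene counts. Of 59 GFP peaks in the Hist1 interval, 16 lay at histone promoters, 6 at other coding promoters alone and 37 elsewhere. Of 40 SRCAP peaks there, the counts were 14, 5 and 21. In the Hist2 interval 6 of the 8 GFP and 4 of the 5 SRCAP peaks lay at histone promoters. What sets these densities apart from those of the chromosomes was not tested.

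Genes that act on histones without belonging to the clusters were examined through 3 lists. Of 24 genes of the histone locus body and of histone mRNA processing, 12 had a GFP peak (50%, 31.4% to 68.6%) and 16 a SRCAP peak (66.7%, 46.7% to 82%), against 35.0% and 35.6% of all genes. Npat, the coactivator of histone transcription, had scores of 71 with GFP and 181 with SRCAP. Casp8ap2, a component of the histone locus body, had 122 and 175, Nfya, a subunit of the CCAAT-binding factor NF-Y, 116 and 169, and Lsm10, a subunit of the U7 snRNP that cleaves histone pre-mRNA, 68 and 130. Slbp, which binds the stem-loop, had a SRCAP peak alone with a score of 34. Snrpb, Snrpf, Cstf2, Eri1, Yy1 and E2f1 had no promoter peak in either list.

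Of 19 histone chaperone genes, 12 had a GFP peak (63.2%, 41% to 80.9%) and 11 a SRCAP peak (57.9%, 36.3% to 76.9%), against 35.0% and 35.6% of all genes. Asf1b, a chaperone of H3 and H4, had scores of 266 and 299, and Nap1l4 had 89 and 137. Nasp, another chaperone of H3 and H4, had 40 and 131, and Chaf1b, a subunit of chromatin assembly factor 1, had 128 and 78. Asf1a, Rbbp7, Atrx, Ipo4 and Hat1 had no promoter peak.

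The third list, labelled replication-independent, holds histone variant genes outside the clusters. Of 14 listed, 13 were found by symbol. A GFP peak was found at 7 of these (53.8%, 29.1% to 76.8%) and a SRCAP peak at 5 (38.5%, 17.7% to 64.5%), against 35.0% and 35.6% of all genes. H2afv, which encodes the form H2A.Z.2, had scores of 239 and 60, and H3f3b, which encodes H3.3, had 101 and 67. Cenpa, the centromeric H3, had 77 and 89, and H2afx had 77 and 64. H1f0, H1foo, H1fnt, H2afz, H2afy and H2afy2 had no promoter peak in either list. H2afz encodes H2A.Z.1. H1fx was the linker histone gene with a promoter peak, with scores of 49 and 40.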

How the data were processed

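The data are 2 peak lists, 1 per CUT&RUN library, and samples were grouped by the antibody their titles state. The authors deposited the coordinates and a score for each peak. What the score means was not stated. It is a whole number of at least 13 and is not normalised between lists. Peak names carry MACS2 and 1 library, so peaks were called per library. Per the labels, processing used STAR, Picard and MACS2 and the build mm10, and the parameters and any control for CUT&RUN are not given in the sources used here. That the GFP library is CUT&RUN rests on its labels, since the study's methods describe that antibody under CUT&Tag. Read depth is unknown, and blacklisted regions were not removed here.

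The 67 genes were taken from GENCODE vM21 (GRCm38) by symbol. The annotation holds 141767 transcripts, and promoter peaks were counted by midpoint for all 21951 protein-coding genes, the background of every count. Shares carry 95% Wilson intervals. Unique 75-mers were counted over both strands of the assembled chromosomes, with windows from -1000 to +500 bp. Promoter sequences were read from the RefSeq GRCm38.p6 assembly, and RefSeq starts, matched by gene identifier for 67 of 67 genes, gave an alternative. This and the restrictions to 50% and 80% unique 75-mers were added after seeing the data, as were all alternatives for a peak in at least 1 list, for genes shared between the lists and for the order of the lists. Python 3.11.15, numpy 2.4.6, pandas 2.3.3, statsmodels 0.14.6, numba 0.67.0 and matplotlib 3.10.9 were used, and the window, k-mer, motif and hairpin steps were tested on simulated data.

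The genes and the lists were chosen with earlier results of these data known. Any of the 67 genes could be named. Full values were given for the 4 genes of each class with the highest score in either list, for genes with a peak in 1 list alone at or above that list's median score, and for Hist2, Hist3 and Hist4 genes with a peak. Sequences were given for the gene of each class with the highest score in either list among those with peaks in both lists, with the neighbour that shares its peak, and for the earliest gene in genome order without a peak where its motifs were informative. From each list of other genes, up to 4 with the highest scores and those with no peak were named, and Slbp, H2afz and H1fx were described further after their values were seen.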

Additional observations from a re-analysis of the deposited data

How the results depend on the processing

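The shares over the family, classes and clusters, the sharing between lists, the median midpoints and the motif shares were recomputed with other windows, peak thresholds, TSSs or gene sets, which gave 252 alternative values. Of these, 231 lay inside the interval of the value reported above (for midpoints, the interquartile range) and 21 lay outside it. The 30 values for a peak in at least 1 list and for genes shared between the lists were added after seeing the data. Leaving out peaks scored under their list's median lowered the shares to 20.9% (GFP), 23.9% (SRCAP), 13.4% (both) and 31.3% (at least 1 list), which put SRCAP above GFP. It left 16.7% of H2a genes with GFP, 33.3% of H2b genes with SRCAP, 7.69% of H4 genes with each antibody, 13% (GFP) and 22.2% (SRCAP) of Hist1 genes and 20% of Hist2 genes with SRCAP. A window of 2500 bp on either side raised the GFP share to 59.7%, the share with a peak in at least 1 list to 74.6%, H1 genes with GFP to 83.3%, Hist1 genes with GFP to 50%, and Hist2 genes to 100% (GFP) and 80% (SRCAP). In genes with at least 80% unique 75-mers, SRCAP peaks were found at 83.3% of H2b genes, 78.6% of genes with a SRCAP peak also had a GFP peak, and GFP peaks at 80% of H3 and 100% of Hist2 genes. Of 10 alternatives, the GFP count of the family stayed above the SRCAP count in 8, equalled it with a window of 500 bp on either side and fell below it in 1. The SRCAP count of H2a and H2b genes pooled was the higher in 10 of 10, and the GFP count of H3 and H4 genes pooled in 10 of 10. Why these values moved was not tested beyond the peaks or genes each setting removes or adds. The other settings, including protein-coding TSSs, RefSeq starts, any overlap, genes with the hairpin, promoters counted as units, a reciprocal overlap of 50%, midpoints within 200 bp and motif windows of 500 bp, moved no value outside its interval. No paired analysis was possible because there was only 1 library for each antibody. No replicate could be left out, and with no read counts a missing peak cannot be told apart from a signal too weak to call at these depths.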

Other observations

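The Hist1 interval on chromosome 13 also holds 77 RefSeq tRNA genes, all outside the 4 blocks of histone genes. A GFP peak midpoint lay within 250 bp of 12 of them (15.6%) and a SRCAP midpoint within 250 bp of 8 (10.4%), against 13.4% and 11.2% of 403 tRNA genes genome-wide. Peaks of both lists lay near 5 of the 77 (6.49%), against 6.7% genome-wide.

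Of 3 histone pseudogenes with symbols of the same kind, Hist3h2bb-ps, which lies beside Hist3h2a, had 1 promoter peak in each list. Hist1h2al, on chromosome 13 away from the cluster, had 1 GFP peak and no SRCAP peak, and Hist1h2aj had none.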
